A study of Mus musculus with 135 samples.

Results

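Repeated social defeat (RSD) was compared with no RSD in the cerebral cortex of male Townes sickle (SS) mice. The comparison holds 14 of the 135 libraries of the series, chosen by their labels as cortex, disease state SS and treatment No, with 6 SS + RSD mice and 8 SS mice that were not exposed. The series as a whole covers cortex and hippocampus of SS mice and of humanized control (AA) mice, with or without RSD and with or without minocycline. In all 14 mice the murine globin genes are replaced by human ones in the germ line, with the sickle allele of beta-globin, and none of them received minocycline. The study's methods describe 2 cohorts of males, a first of 6-month-old mice with or without RSD and a second, of an age not stated there, that was given minocycline or plain water, and the labels do not say which cohort a mouse belonged to. The SS + RSD mice had a male aggressor in the home cage, which held 3 residents, for 2 h a day on 6 days, and the SS mice were housed in cages without an aggressor. Brains were taken after the behavioral tests that followed the defeat sessions. The labels do not say which mice shared a cage.

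RSD is a model of psychosocial stress. In other mouse strains it is known to raise stress hormones of the adrenal gland, to release myeloid cells from the bone marrow and to prime microglia, the resident immune cells of the brain. The cortex is built of layered excitatory neurons, inhibitory interneurons, astrocytes, oligodendrocytes, microglia and blood vessels, and bulk RNA sequencing sums the messenger RNA of all of them. A lower value in such data may come from fewer cells of a type or from less RNA per cell, and these cannot be told apart. Levels are given as CPM, the reads on a gene relative to all reads on genes after scaling of the libraries, as edgeR computes it, and differences as log2 fold changes of SS + RSD over SS mice.

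The labels name each mouse by a number. All 6 SS + RSD mice (5354, 5391, 5400, 9615, 9616 and 9621) have numbers in ranges called series A here. Of the SS mice, 2 (5349 and 5353) are in series A and 6 (5785, 5854, 9822, 9824, 9848 and 9903) are not, and these are called series B. What the number series stand for is not stated in the labels, and series and exposure overlap only through these 2 mice. Levels are therefore given for the SS mice of series A and of series B apart wherever the text turns on them.

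The 14 libraries held 16295042 to 70016768 reads on genes. Cortical layer genes summed to 1158 to 1303 CPM in SS and 1012 to 1299.9 CPM in SS + RSD mice, while markers of the choroid plexus and of the thalamus and hypothalamus were at low sums in most libraries. Some libraries stood apart. The SS + RSD mouse 9621 held 3594 CPM of striatal markers against 538 to 1209.6 CPM in the other 13 mice, and its cortical layer sum was the lowest. The SS mouse 9903 held 1169 CPM of choroid plexus markers, nearly all of it transthyretin (Ttr, 1083 CPM), against 6.74 to 47.5 CPM elsewhere. The SS + RSD mice 5391 and 9621 had the largest shares of reads that did not map, 25.4% and 24.1%, against 4.25% to 15.3% in the other mice, and processed pseudogenes took 0.3485% and 0.3286% of their scaled counts against 0.0677% to 0.1475%. Processed pseudogenes are inserted DNA copies of messenger RNAs, and reads on them are hard to tell from reads of the parent gene. Over the 1177 processed pseudogenes tested, mice 5391 and 9621 lay a median 2.91 log2 units above the SS mice, and the other 4 SS + RSD mice 0.30.

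**Figure D1:**
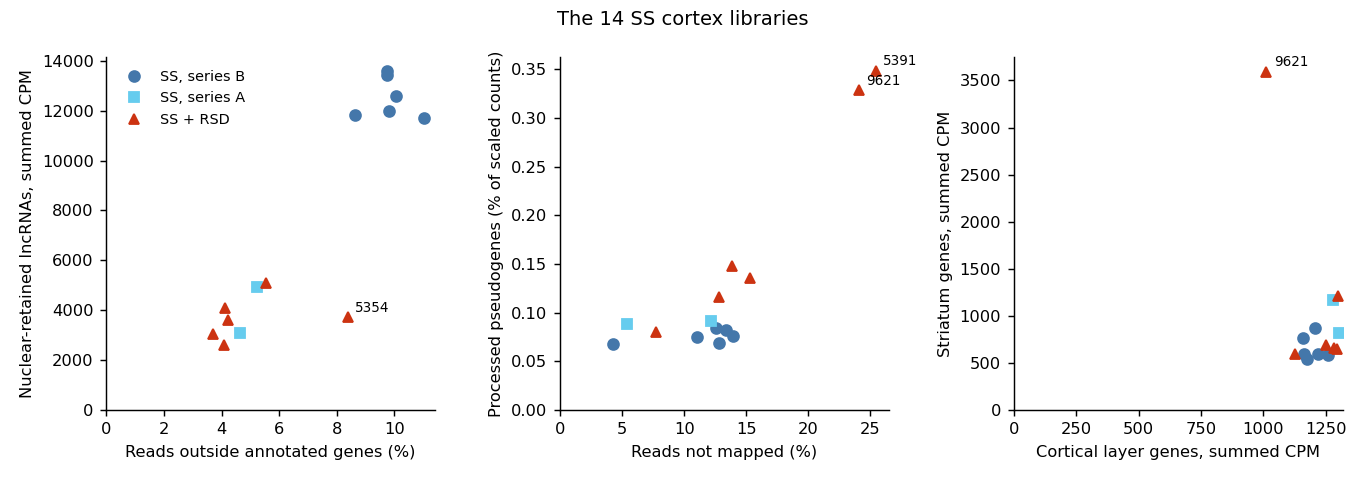
Each point is 1 of the 14 SS cortex libraries. Left, the percentage of reads outside annotated genes against the summed CPM of nuclear-retained long noncoding RNAs; middle, the percentage of unmapped reads against the percentage of scaled counts on processed pseudogenes; right, the summed CPM of cortical layer genes against that of striatal genes. The 2 series A SS mice lie among the SS + RSD mice in the left panel, mice 5391 and 9621 stand apart in the middle panel, and mouse 9621 stands apart in the right panel.

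The share of reads that fell outside annotated genes also split the mice. It ran from 3.69% to 8.39% with a median of 4.18% in SS + RSD mice and from 4.63% to 11.04% with a median of 9.75% in SS mice (exact permutation test, two-sided, p = 0.00799, adjusted p = 0.036 over 18 values per library). The series A SS mice had 5.24% and 4.63%, within the range of the SS + RSD mice, and the series B SS mice had 8.63% to 11.04%. Within series A the means differed by 0.0737 percentage points (exact permutation p = 1, where 0.0357 is the smallest that 6 against 2 mice can give).

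In all, 511 of the 19906 genes tested (2.57%) had an adjusted p under 0.05 for SS + RSD against SS mice in edgeR's quasi-likelihood test. Of these, 56 (0.281%) rose and 455 (2.29%) fell. The genes that fell included Muc3a, a membrane mucin, Tnfrsf25, a death-domain receptor, Adam33, a metalloprotease, the long noncoding RNAs Miat, Snhg11 and Meg3, and Leng8, which takes part in the nuclear handling of messenger RNA. The median log2 fold change was -1.03 in the genes that fell and 0.62 in those that rose. The genes that rose included Kcnj2, an inward rectifier potassium channel, Smo, the signal transducer of the hedgehog pathway, and Pdia4, a chaperone of the endoplasmic reticulum. Csf1r, the receptor that microglia need to survive, and Cd74 and H2-Eb1 of antigen presentation also rose. The smallest adjusted p was 0.0405, so all calls lay close to the threshold. Leaving mouse 9621 out of the model left 0 genes past the threshold, while 4811 had an unadjusted p under 0.05, and leaving out mice 5391 and 9621 left 0 with 4102. In the model of all SS cortex groups, leaving out any of 9 single mice gave 0 called genes, without mouse 5354 there were 2, without 5785 there were 154 and without 5400 there were 636. Without the series A SS mice 5349 or 5353 the number rose to 1516 and 1994. In a model of the 14 libraries alone, edgeR called 3348 genes, 3841 without mouse 9621 and 4217 without mice 5391 and 9621.

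The means of the undefeated series A mice lay nearer to the defeated mice than to the series B SS mice in most of the called genes, while their single values often lay outside the range of the defeated mice. In 456 of the 511 called genes (89.2%) the mean of mice 5349 and 5353 was nearer to that of the SS + RSD mice than to that of the series B SS mice, against 71.2% of all genes tested. This held for 430 of the 455 lower genes and 26 of the 56 higher genes. Both mice lay inside the range of the SS + RSD mice in 221 of the 511 called genes, against 71.4% of all genes tested, and inside the range of the series B SS mice in 22, against 31.4%. The lower genes lay a median 1.24 log2 units below the series B SS mice and 0.18 below the series A SS mice, and the higher genes lay 0.72 above series B and 0.36 above series A. When the model also held the number series, edgeR called 0 genes, while 615 had an unadjusted p under 0.05. Of the 511 genes, 464 kept their direction and 36 had an unadjusted p under 0.05. Within series A alone, 6 against 2 mice, edgeR called 1 gene, Pcdhgb8. Of the 494 called genes that could be tested there, 457 kept their direction and 20 had an unadjusted p under 0.05. The 511 genes were chosen in these same mice, so a kept direction is no separate result. RSD and number series cannot be told apart for genes in which the series A SS mice lie with the SS + RSD mice.

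Long noncoding RNAs made up 10.6% of the genes tested and 17.6% of those that fell (80 genes), and none of the 56 that rose was one. Snhg11 (ENSMUSG00000044349.17, chromosome 2, 158217558 to 158228071), a neuronal host gene of small nucleolar RNAs, ran from 422 to 1034 CPM with a median of 672 in SS + RSD mice, while the series B SS mice had 2957 to 3751 CPM and the series A SS mice 551 and 1030. All SS + RSD mice lay below all series B mice and overlapped the series A mice. The log2 fold change was -1.97 (SE 0.43, adjusted p = 0.0405), and when the model held the number series it was -0.21 (SE 0.50, unadjusted p = 0.672).

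Meg3 (ENSMUSG00000021268.18, chromosome 12, 109506877 to 109538165), a maternally expressed imprinted transcript that stays in the nucleus, showed the same layout. It had 785, 1343 and 2091 CPM as the lowest, median and highest value in SS + RSD mice, 5838 to 7219 CPM in the series B SS mice and 953 and 2052 CPM in the series A SS mice (log2 fold change -1.95, SE 0.49, adjusted p = 0.0405). Mirg, transcribed from the same imprinted region, fell by 1.34 on the log2 scale (SE 0.33, adjusted p = 0.0405), with 7.79 to 13.8 CPM in SS + RSD mice against 10.7 to 38.9 CPM in SS mice. Miat, whose exons overlap Gm26953 on the other strand over 32.6% of their length, Neat1 and Firre were the other members of the list of nuclear-retained long noncoding RNAs that fell. Neat1, which builds the paraspeckles of the nucleus, had 25.3 to 89.1 CPM in SS + RSD mice, 59.1 and 72.4 CPM in the series A and 130 to 173 CPM in the series B SS mice. In total 6 of 14 tested members fell and 0 rose, where 2.29% of all genes tested fell. The median log2 fold change of the 14 was -1.21 against 0.08 over all genes tested. Against the series A SS mice alone their median difference was -0.08 log2 units, and against the series B SS mice -1.51. Malat1, a member of nuclear speckles, did not follow the 6 that fell, with 157 to 524 CPM in SS + RSD and 302 to 483 CPM in SS mice (adjusted p = 0.777).

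Of the other called long noncoding RNAs with a name, Mir124a-1hg, a host transcript of the neuronal microRNA miR-124, ran from 53.8 to 115 CPM in SS + RSD mice against 83.7 to 360 CPM in SS mice (log2 fold change -1.56, SE 0.35, adjusted p = 0.0405). C78859 had 7.07 to 17.96 CPM against 13.6 to 53.9 CPM, and Tomm6os, whose exons overlap Prickle4 on the other strand over 50.9% of their length, had 2.95 to 4.21 CPM against 3.46 to 8.26 CPM. In each of these the lowest SS values were those of series A mice.

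**Figure D2:**
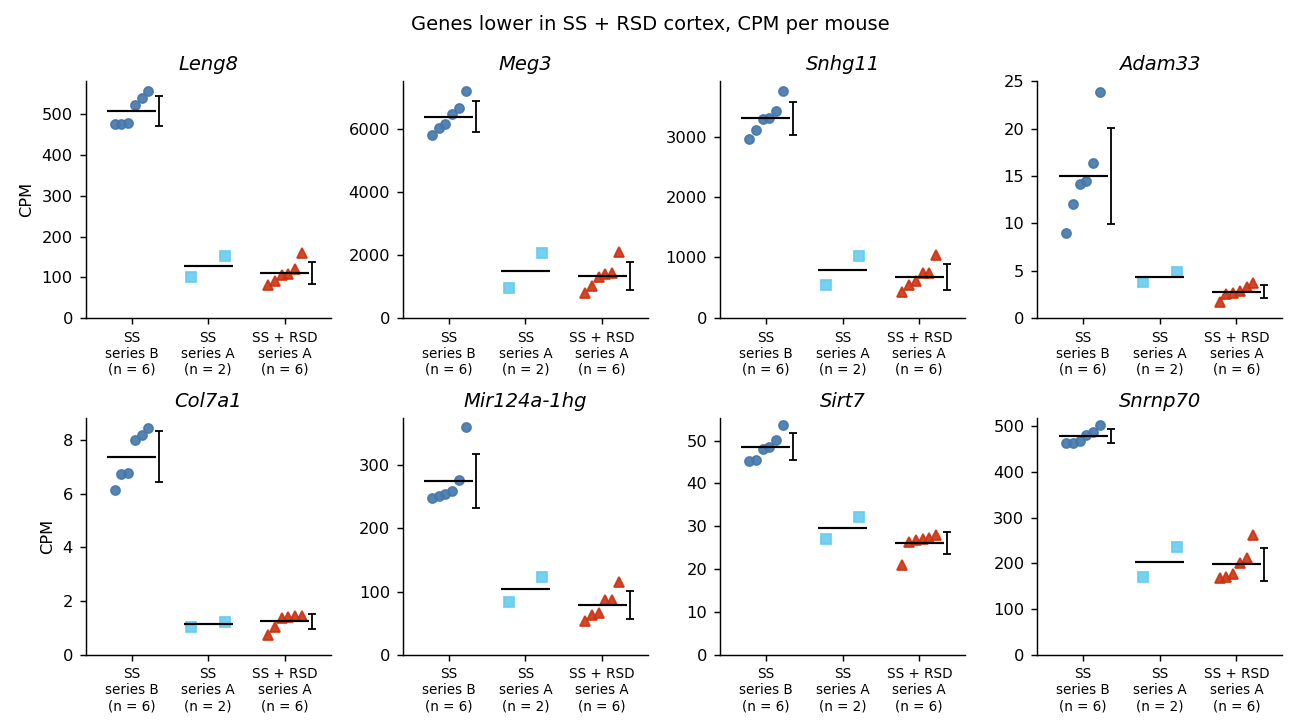
CPM of 8 genes that were lower in SS + RSD cortex, 1 point per mouse, in series B SS mice (n = 6), series A SS mice (n = 2) and SS + RSD mice (n = 6); horizontal lines are means and bars to the right are SDs, not drawn for n = 2. In Leng8, for example, series B SS mice sit at 476 to 558 CPM and the series A SS mice, at 100.3 and 153 CPM, lie among the SS + RSD mice at 80.7 to 159 CPM.

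Called protein-coding genes with at least 2 CPM on average were ranked by size of change if they kept their direction without mouse 9621. The largest decreases among them were those of Muc3a, Col7a1, Tnfrsf25, Adam33, Col5a1, Flt3l, Leng8, Cfap65, Col24a1 and Pde4c. Muc3a (ENSMUSG00000094840.6, chromosome 5, 137243270 to 137246852), a membrane mucin, had 0.514 to 3.79 CPM with a median of 1.25 in SS + RSD mice against 0.795 and 1.33 CPM in the series A and 7.66 to 23.7 CPM in the series B SS mice. Its log2 fold change was -2.95 (SE 0.80, adjusted p = 0.0461), and it turned to 0.62 when the model held the number series. Leng8 (ENSMUSG00000035545.14, chromosome 7, 4140005 to 4151180), which takes part in the nuclear handling of messenger RNA, fell by 1.91 on the log2 scale (SE 0.45, adjusted p = 0.0405), with 80.7, 106 and 159 CPM as lowest, median and highest value in SS + RSD mice.

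The 10 genes included 3 collagens. Col7a1, which encodes the anchoring fibrils of type VII collagen, had 0.737 to 1.45 CPM in SS + RSD and 1.02 to 8.44 CPM in SS mice (log2 fold change -2.23, SE 0.52). Col5a1, a regulator of fibril diameter, had 7.29 to 27.5 CPM against 12.4 to 91.5 CPM (log2 fold change -2.03, SE 0.54), and the highest SS + RSD value was that of mouse 5400. Col24a1, a fibrillar collagen also made by neurons, had 1.47 to 5.11 CPM against 2.46 to 16.8 CPM (log2 fold change -1.80, SE 0.50). Their adjusted p values were 0.0405, 0.0451 and 0.0475. In all 3 the series A SS mice lay within the SS + RSD range, and the series B mice lay above it. The list of meningeal and fibroblast markers, which holds the more abundant fibrillar collagens Col1a1, Col1a2 and Col3a1, had 0 of 12 members called and a median log2 fold change of 0.44.

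A further 4 of the 10 genes have varied roles. Tnfrsf25, a death-domain receptor best known on T cells, had 0.771 to 3.24 CPM in SS + RSD mice against 1.67 to 18.7 CPM in SS mice (log2 fold change -2.16, SE 0.57, adjusted p = 0.0432), and its exons overlap Espn on the other strand over 17.1% of their length. Flt3l, the ligand that drives dendritic cell development, had 0.82 to 1.37 CPM against 0.949 to 6.61 CPM (log2 fold change -1.93, SE 0.40, adjusted p = 0.0405). Pde4c, a cyclic AMP phosphodiesterase, and Cfap65, a protein of the sperm flagellum, fell by 1.75 and 1.89. The lowest SS value was in a series A mouse in each of these genes.

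Adam33 was the gene among these 10 in which the exposed mice lay apart from every control. Adam33 (ENSMUSG00000027318.18, chromosome 2, 130892511 to 130905782), a membrane-bound metalloprotease, had 1.70, 2.76 and 3.65 CPM as lowest, median and highest value in SS + RSD mice. The series A SS mice had 3.77 and 4.86 CPM and the series B mice 8.97 to 23.9 CPM, so that all 6 SS + RSD mice lay below all 8 SS mice, by little in the case of series A. The log2 fold change was -2.15 (SE 0.45, adjusted p = 0.0405) over all SS mice and -0.64 (SE 0.28, unadjusted p = 0.0468, adjusted p = 1) within series A.

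Of 28 tested splicing factors and CLK kinases, which phosphorylate splicing factors, 5 fell and 0 rose, where 2.29% of all genes tested fell, and the median log2 fold change was -0.47 against 0.08 over all genes. Snrnp70, a protein of the U1 spliceosomal particle, had 167 to 261 CPM in SS + RSD mice, 171 and 236 CPM in the series A and 464 to 502 CPM in the series B SS mice (log2 fold change -1.05, SE 0.25, adjusted p = 0.0405). Luc7l3, another U1-associated protein, fell by 0.54, Clk2 by 0.56, the cyclin Ccnl2 by 0.78 and Clk3 by 0.53, with adjusted p values of 0.0405 to 0.0448. Against the series A SS mice alone the median difference of the 28 members was 0.02 log2 units, against -0.61 to the series B mice.

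The sirtuins, protein deacylases that use NAD, and sphingolipid genes are of interest to the study. Sirt4 and Sirt7 fell, as 2 of the 7 sirtuins, where 2.29% of all genes tested fell. When the model held the number series, their log2 fold changes were -0.14 and -0.19 (unadjusted p = 0.669 and 0.334). Of the 7, 2 had a log2 fold change above 0, Sirt2 and Sirt3, both at 0.24 (adjusted p = 0.127 and 0.222). Sirt7, a nuclear deacylase, had 20.9 to 27.8 CPM in SS + RSD mice, 27.1 and 32.25 CPM in the series A and 45.25 to 53.7 CPM in the series B SS mice. Mouse 9621 was the lowest SS + RSD mouse for Sirt2, Sirt3, Sirt4, Sirt6 and Sirt7. Sirt6 had 11.5 to 14.97 CPM against 13.9 to 22.3 CPM (adjusted p = 0.0648), and Sirt1 and Sirt5 had adjusted p values of 0.623 and 0.604. Of 36 tested sphingolipid genes, Smpd4, a neutral sphingomyelinase of the nuclear envelope and endoplasmic reticulum, fell, 0 rose, and the median was 0.11. Smpd4 had 36.6 to 58.65 CPM in SS + RSD mice, 43.5 and 63.99 CPM in the series A and 97.3 to 124 CPM in the series B SS mice (log2 fold change -1.03, SE 0.25, adjusted p = 0.0405). When the model held the number series, the log2 fold change of Smpd4 was -0.16 (unadjusted p = 0.616).

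Among the genes that rose, Kcnj2 was higher than in the SS mice of both number series. Kcnj2 (ENSMUSG00000041695.3, chromosome 11, 110956981 to 110967665) encodes Kir2.1, an inward rectifier potassium channel that holds the resting potential of neurons, endothelial cells and muscle. It had 21.7, 27.96 and 34.8 CPM as lowest, median and highest value in SS + RSD mice, 14.4 and 16.3 CPM in the series A SS mice and 15.3 to 22.98 CPM in the series B SS mice. Of the 6 exposed mice 5 lay above all 8 controls, and the lowest, mouse 5400, overlapped the highest series B mouse, 5854. The log2 fold change was 0.65 (SE 0.14, adjusted p = 0.0405) and was 0.88 when the model held the number series (SE 0.23, unadjusted p = 0.000581, adjusted p = 1). For Kcnj2 it was 0.87 within series A (SE 0.18, unadjusted p = 0.000977) and 0.79 with the share of reads outside genes as a term (unadjusted p = 1.24e-05, adjusted p = 0.247). Mice 9621 and 5391 were the highest, and without both the log2 fold change was 0.47 (adjusted p = 0.117).

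Htr5b, a serotonin receptor of restricted expression in the rodent brain, was the 1 called gene of 14 serotonin and dopamine receptors, where 2.57% of all genes tested were called. It had 1.36 to 2.33 CPM with a median of 2.0 in SS + RSD mice, 0.921 and 0.949 CPM in the series A and 0.534 to 1.39 CPM in the series B SS mice. The log2 fold change was 0.92 (SE 0.25, adjusted p = 0.0472) and 0.99 within series A (unadjusted p = 0.0118, adjusted p = 1). The lowest exposed mouse, 9615, overlapped the highest control, and the other 5 lay above all controls.

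Counting genes whose values did not overlap, all 6 SS + RSD mice lay above all 8 SS mice in 75 genes (0.377% of all tested) and below them in 90 (0.452%), and 8 and 41 of these were called. The 6 protein-coding genes of the 8 that rose were Smo, Flrt3, B3galt2, St3gal4, G3bp1 and Gnb1. They and the genes named in the rest of this paragraph, other than Smo, were chosen after their values were seen. Flrt3 (ENSMUSG00000051379.13, chromosome 2, 140492834 to 140513396), an adhesion protein that binds latrophilins at synapses and guides axons, had 30.5, 32.7 and 38.98 CPM in SS + RSD mice as lowest, median and highest value. The SS mice were tightly spaced, with 25.2 and 26.2 CPM in series A and 23.5 to 26.5 CPM in series B. Its log2 fold change was 0.40 (SE 0.10, adjusted p = 0.0407). B3galt2, a galactosyltransferase of glycoproteins and glycolipids, had 53.3 to 61.3 CPM against 37.2 to 52.2 CPM (log2 fold change 0.39, SE 0.11, adjusted p = 0.0472), the highest SS value being that of series A mouse 5349. Smo had 13.8 to 20.8 CPM in SS + RSD mice, 12.1 and 13.4 CPM in series A and 8.72 to 11.3 CPM in series B SS mice (log2 fold change 0.55, SE 0.14, adjusted p = 0.0405). Of the lower genes of this kind, Sun1, a nuclear envelope protein, had 88.0 to 120 CPM in SS + RSD mice, 128 and 131 CPM in the series A and 146 to 172 CPM in the series B SS mice. Its log2 fold change was -0.53 (SE 0.14, adjusted p = 0.0407), or 0.35 log2 units below the series A mean.

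Pcdhgb8, the only gene called within series A alone, did not separate the groups as a whole. This clustered protocadherin, a cell adhesion protein whose isoforms are chosen neuron by neuron, had 5.38 to 7.31 CPM in the 6 SS + RSD mice and 0.769 and 0.87 CPM in the series A SS mice. The series B SS mice had 9.24, 5.84, 5.12, 4.95, 1.00 and 0.625 CPM, so the exposed mice lay inside their range. Over all SS mice its adjusted p was 0.501.

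**Figure D3:**
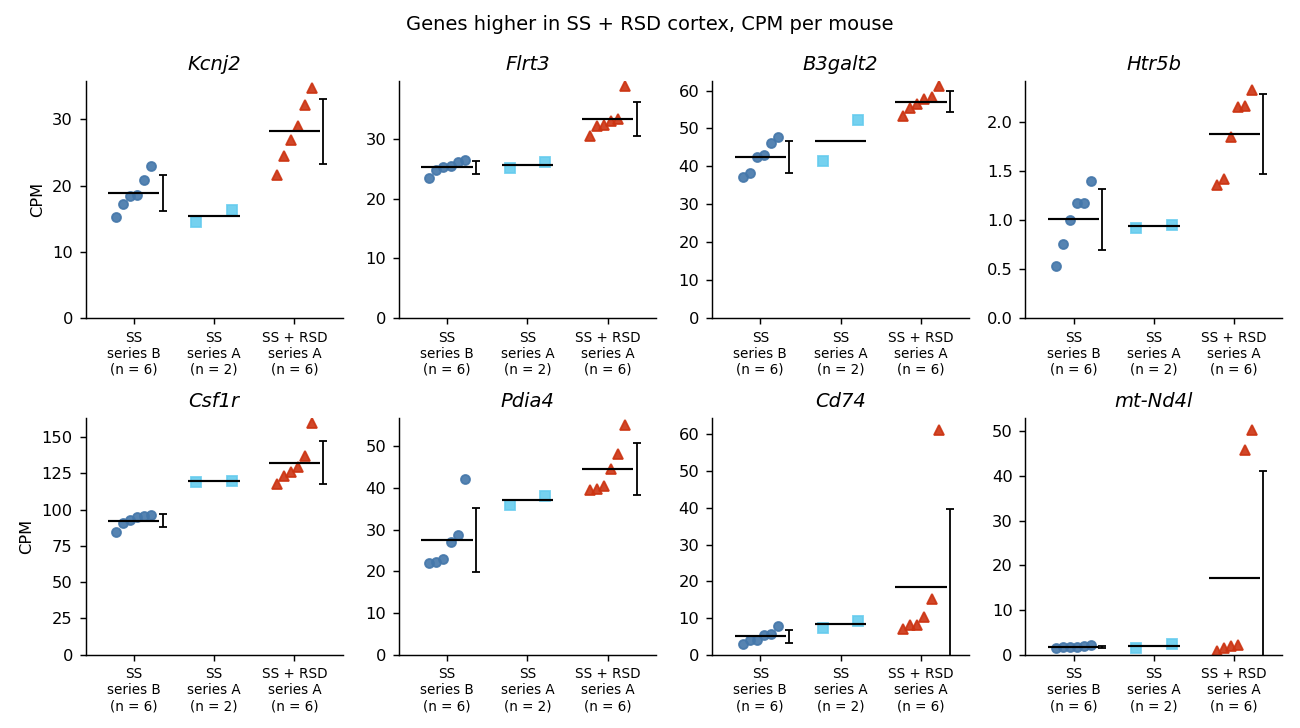
CPM of 8 genes that were higher in SS + RSD cortex, 1 point per mouse, drawn as for the lower genes; error bars that reach below 0 are cut at 0. Kcnj2, Flrt3 and Htr5b of the series A SS mice lie with the series B SS mice, Csf1r of the series A SS mice at 119 and 120 CPM lies near the SS + RSD mice, and the mean of mt-Nd4l rests on mice 5391 and 9621 and that of Cd74 on mouse 9615.

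Genes of antigen presentation by MHC class II, the surface complex of microglia, border macrophages and dendritic cells, were high in 1 exposed mouse. Cd74 (ENSMUSG00000024610.16), the invariant chain, had 61.3 CPM in mouse 9615 and 7.001 to 15.2 CPM in the other 5 SS + RSD mice, against 2.83 to 7.93 CPM in series B and 7.33 and 9.16 CPM in series A SS mice. The log2 fold change was 1.66 (SE 0.43, adjusted p = 0.0425), and without mouse 9615 the Cd74 log2 fold change was 0.70 (adjusted p = 0.241). H2-Eb1, the beta chain of the E complex, had 25.5 CPM in mouse 9615, 3.95 to 5.69 CPM in the other SS + RSD mice and 1.42 to 4.23 CPM in SS mice (log2 fold change 1.54, SE 0.43, adjusted p = 0.0475), and without mouse 9615 the H2-Eb1 log2 fold change was 0.74 (adjusted p = 0.249). H2-Aa and H2-Ab1, the chains of the A complex, were named after their values were seen; they also peaked in mouse 9615, at 34.03 and 19.55 CPM, and had adjusted p values of 0.0571 and 0.0514. Itgb2, the beta-2 integrin of leukocytes and microglia, rose more evenly, with 6.43 to 9.90 CPM in SS + RSD mice, 6.66 and 7.08 CPM in series A and 4.01 to 5.89 CPM in series B SS mice (log2 fold change 0.60, SE 0.17, adjusted p = 0.0475).

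Of 21 microglial genes, 1 rose (Csf1r), where 0.281% of all genes tested rose, and 0 fell. All 21 had a log2 fold change above 0, against 59.3% of all genes tested, and the median was 0.46. Csf1r (ENSMUSG00000024621.17), which shares 19.8% of its exon length with Hmgxb3 on the opposite strand, had 118 to 160 CPM in SS + RSD mice, 119 and 120 CPM in series A and 84.8 to 96.4 CPM in series B SS mice (log2 fold change 0.41, SE 0.12, adjusted p = 0.0491). The microglial sum was 685 to 939 CPM in SS + RSD and 475 to 784 CPM in SS mice (exact permutation p = 0.00433, adjusted p = 0.026). It was 725 and 784 CPM in the series A SS mice and 475 to 569 CPM in the series B mice, and within series A the p was 0.5. Without mouse 9621 the adjusted p of the microglial sum was 0.0653. Tmem119 and P2ry12, markers that separate microglia from blood-derived cells, had log2 fold changes of 0.52 (adjusted p = 0.0625) and 0.46 (adjusted p = 0.12).

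Blood-derived immune cells gave little signal. Of 11 tested genes of blood-derived myeloid cells and 11 of T and B lymphocytes, 0 were called, and markers such as Ngp, Camp, Mpo, Cd3d, Cd3e and Cd3g did not pass the filter on low counts. The myeloid sum was 40.1 to 75.6 CPM in SS + RSD mice, where the highest was mouse 9621, and 32.4 to 54.8 CPM in SS mice. Of 25 cytokine and chemokine genes 16 were tested and 0 called, with a median of 0.22; Il6, Tnf and Ccl2 did not pass the filter. Ccl5 had 0.182 to 0.877 CPM against 0.0334 to 0.346 CPM (adjusted p = 0.124). Of 23 interferon-stimulated genes 0 were called, and Stat2 and Irf9, parts of the interferon-activated transcription complex, had log2 fold changes of -0.46 and -0.51 (adjusted p = 0.0689 and 0.0723).

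Genes that respond within minutes to hours to neuronal activity or stress hormones did not pass the test. Of 24 immediate early genes 0 were called and the median log2 fold change was -0.01. The largest was that of Nr4a1, an orphan nuclear receptor induced by activity, with 50.6, 72.6 and 150.3 CPM as lowest, median and highest value in SS + RSD mice, 157 and 174 CPM in series A and 83.3 to 242 CPM in series B SS mice (log2 fold change -0.79, SE 0.25, adjusted p = 0.0639). Here 4 exposed mice lay below all controls, and the difference from series A was -1.08 log2 units. Of 21 glucocorticoid-responsive genes 0 were called, with a median of 0.19. Among them Fkbp5 and Tsc22d3, classic targets of the glucocorticoid receptor, had log2 fold changes of 0.24 and 0.17 (adjusted p = 0.483 and 0.514).

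The clock gene Per1, which is also a target of the glucocorticoid receptor, had 69.2 to 98.9 CPM in SS + RSD mice, 103 and 113 CPM in series A and 96.1 to 164 CPM in series B SS mice (log2 fold change -0.63, SE 0.20, adjusted p = 0.0636). Of the exposed mice 5 lay below all controls, and mouse 5354 overlapped them. Per3 had 28.6 to 50.2 CPM against 40.4 to 104 CPM (adjusted p = 0.0674). Over 18 clock genes 0 were called, and the median was -0.06. The labels do not give the time of day at which tissue was taken.

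Interneuron and astrocyte markers had 0 called genes, and their sums were higher on average in SS + RSD than in SS mice. All 17 interneuron genes had log2 fold changes above 0, against 59.3% of all genes tested, with a median of 0.31 and 0 called. Their sum was 1607 to 1974 CPM in SS + RSD and 1157 to 1728 CPM in SS mice (exact permutation p = 0.00366, adjusted p = 0.026). The series A SS mice, at 1665 and 1728 CPM, lay within the SS + RSD range, and the series B mice had 1157 to 1391.5 CPM. All 20 astrocyte genes were above 0 as well, with a median of 0.38 and 0 called. Their sum was 6958 to 9499 CPM against 5760 to 7626 CPM (exact permutation p = 0.00366, adjusted p = 0.026). Here the series A SS mice had 7076 and 7626 CPM, again within the SS + RSD range, and the series B mice 5760 to 6488 CPM. Gfap, the intermediate filament of reactive astrocytes, had 141 to 190 CPM in SS + RSD mice, 152.6 and 153.4 CPM in series A and 44.8 to 108 CPM in series B SS mice (adjusted p = 0.0655). Within series A the interneuron and astrocyte sums both had an adjusted p of 0.804, and without mouse 9621 both had 0.0653. In series A the exact permutation p cannot fall below 0.0357 before adjustment, so a sum could hardly pass there. The calretinin gene Calb2 reached 81.0 CPM in mouse 9621 against 8.84 to 24.7 CPM in the other mice.

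Of 26 glutamate receptor and scaffold genes, 15 cortical layer genes and 24 genes of the endothelium and blood-brain barrier 0 were called, with medians of -0.05, 0.09 and 0.06. Oligodendrocyte and myelin genes had a median of 0.31 with 0 of 20 called, and their sum was 4858 to 8371 CPM against 3984 to 7677 CPM (adjusted p = 0.101). Striatal markers had a median of 1.10 over 20 genes with 0 called; without mouse 9621 their sum differed by 18.96 CPM on average (exact permutation p = 0.889). Of 12 tested erythroid genes 0 were called.

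Genes of protein synthesis, energy supply and protein folding had log2 fold changes above 0 in every member tested of 3 lists. Over all genes tested this share was 59.3%. All 42 ribosomal protein genes had a positive log2 fold change with a median of 0.59, and all 37 subunits of respiratory complex I with a median of 0.47, and 0 of either were called. The ribosomal sum was 8336 to 15164 CPM in SS + RSD mice, 9646 and 10789 CPM in series A and 5500 to 6665 CPM in series B SS mice. Against the series A SS mice alone the median difference was 0.02 log2 units for ribosomal genes and -0.07 for complex I. Against the series B SS mice it was 0.78 and 0.64. Of 22 chaperone genes 22 were above 0 and 1 rose, where 0.281% of all genes tested rose. This was Pdia4, with 39.5 to 55.1 CPM in SS + RSD mice against 21.9 to 42.2 CPM in SS mice (log2 fold change 0.58, SE 0.15, adjusted p = 0.0405). Vcp, a segregase that extracts proteins for degradation, had 339 to 374 CPM in SS + RSD mice, 324.5 and 340 CPM in series A and 243 to 299 CPM in series B SS mice (log2 fold change 0.33, SE 0.10, adjusted p = 0.0625). Ctnnb1, which encodes beta-catenin, had 428 to 658 CPM in SS + RSD mice, 429 and 462 CPM in series A and 324 to 371.5 CPM in series B SS mice (adjusted p = 0.0935). When the model held the number series, the log2 fold changes of Vcp and Ctnnb1 were 0.094 and 0.13 (unadjusted p = 0.529 and 0.517).

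**Figure D4:**
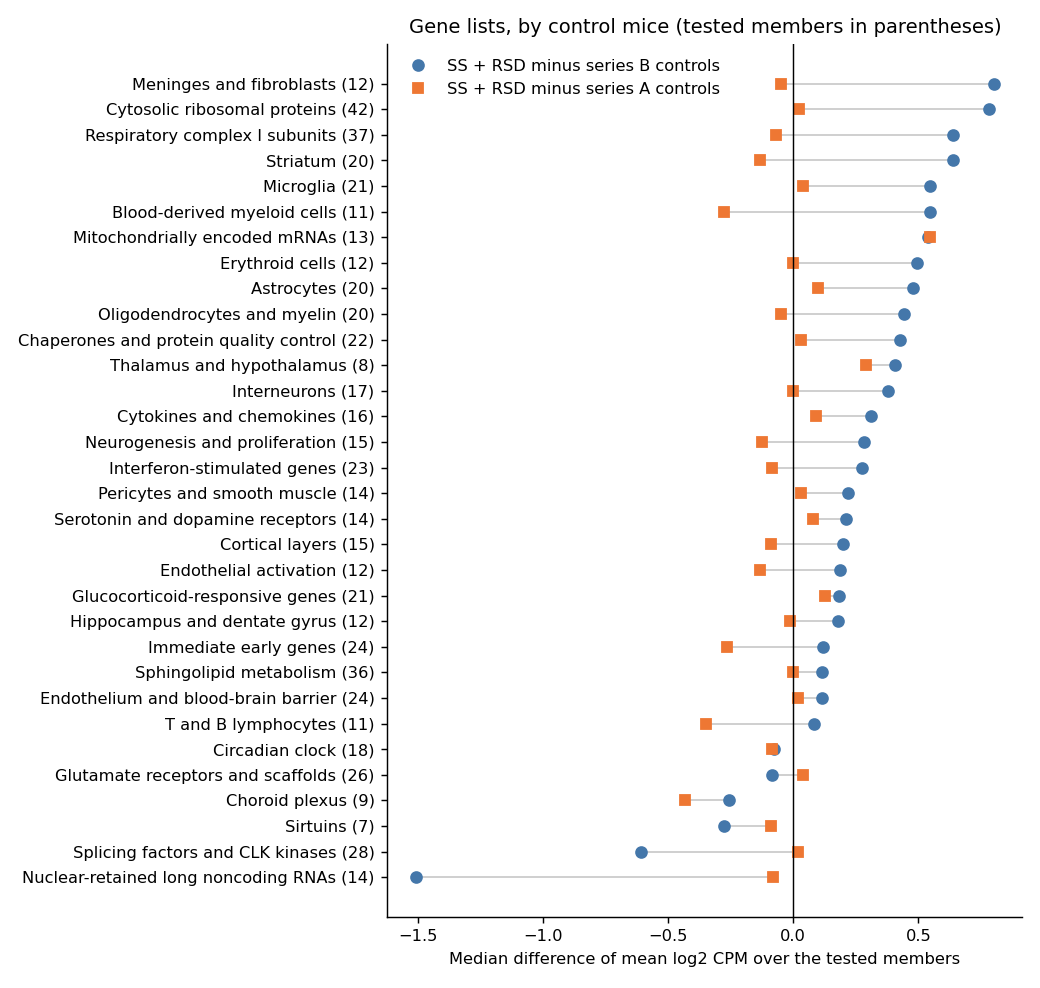
Median over the tested members of each of 32 gene lists (number of members in parentheses) of the difference in mean log2 CPM between SS + RSD mice (n = 6) and the SS mice of series B (circles, n = 6) or series A (squares, n = 2). Most squares lie nearer to 0 than their circles, as for nuclear-retained long noncoding RNAs (-0.08 against -1.51) and ribosomal proteins (0.02 against 0.78), while mitochondrially encoded genes are at 0.55 and 0.54.

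Pseudogenes and some mitochondrially encoded genes were high in 2 exposed mice, 5391 and 9621. Of 13 mitochondrially encoded messenger RNAs 13 had a log2 fold change above 0, against 59.3% of all genes tested, with a median of 0.66. Of the 13, 1 rose, where 0.281% of all genes tested rose. The sum over the list did not set mice 5391 and 9621 apart. It was 60187 and 59493 CPM in this pair, 63518 CPM in SS + RSD mouse 9615 and 55330 CPM in the series A SS mouse 5353. Processed pseudogenes were 5.91% of the genes tested and 14 of the 56 that rose (25%). Genes in which mice 5391 and 9621 both lay above the other 12 mice were counted only among the called higher genes. The pair belongs to the SS + RSD mice by which those genes were called. There were 30 such genes among the 56. Among the protein-coding ones, mt-Nd4l, a subunit of complex I encoded by the mitochondrial genome, had 45.8 and 50.1 CPM in mice 5391 and 9621, 0.771 to 2.21 CPM in the other 4 SS + RSD mice and 1.51 to 2.28 CPM in SS mice (log2 fold change 3.23, SE 0.79, adjusted p = 0.0405). Without these mice it was -0.19 (adjusted p = 0.889). The pair was also highest in mt-Co2 (364 and 307 CPM, against 18.6 to 43.6 CPM elsewhere), in mt-Atp6 (289 and 261 CPM, against 9.61 to 19.8 CPM) and in Gm13340 (1149 and 1003 CPM, against 14.7 to 33.6 CPM), an unprocessed pseudogene on chromosome 2. Of these, Gm13340 was called (adjusted p = 0.0471) and mt-Co2 and mt-Atp6 were not (0.0703 and 0.0679). These 3 genes were named after their values were seen. Reads of near-identical copies may be assigned to either, so the values of these genes are uncertain.

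Of the remaining called protein-coding genes with the largest increases, Plin3, a coat protein of lipid droplets, had 18.8 to 26.9 CPM in SS + RSD mice, 17.9 and 20.4 CPM in series A and 11.3 to 15.9 CPM in series B SS mice (log2 fold change 0.55, SE 0.15, adjusted p = 0.0479). Elp4, a subunit of the Elongator complex, overlaps Pax6 on the other strand over 25.5% of its exons. It had 9.97 to 15.9 CPM in SS + RSD mice, 9.52 and 10.85 CPM in series A and 6.88 to 9.505 CPM in series B SS mice. The Elp4 log2 fold change was 0.48 (SE 0.12, adjusted p = 0.0405), and 0.31 when the model held the number series (unadjusted p = 0.105). Tmem255b had 1.87 to 5.13 CPM in SS + RSD mice, with mouse 9616 the highest. The series A SS mice, at 1.92 and 2.46 CPM, lay within this range, and the series B mice had 0.917 to 1.84 CPM. The Tmem255b log2 fold change was 0.87 (SE 0.25, adjusted p = 0.0491), and 0.43 when the model held the number series (unadjusted p = 0.251).

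The hippocampus of the 6 SS + RSD and of 7 of the 8 SS mice was also sequenced, so that each mouse gives a difference between tissues. Of 19509 genes tested with limma on the within-mouse difference, 0 passed (0%), while 905 had an unadjusted p under 0.05, and 0 called in each of the 4 other settings tried. Among the 510 genes called in cortex that were measured in both tissues, 509 had the same sign in the hippocampus. These genes were chosen by their cortex difference, and the tissues come from the same mice with the same number series. The shared sign is therefore no separate result, and the share over all genes tested was not computed. The lower genes were a median 0.95 log2 units lower in cortex and 0.94 lower in hippocampus. The higher genes were 0.65 higher in cortex and 0.30 higher in hippocampus. The cortex medians rest on the values by which the genes were chosen. Snhg11 was at -1.86 in hippocampus and Kcnj2 at 0.52. Htr5b was at 0.14 in hippocampus and its tissue difference was 0.81 (adjusted p = 0.937).

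**Figure D5:**
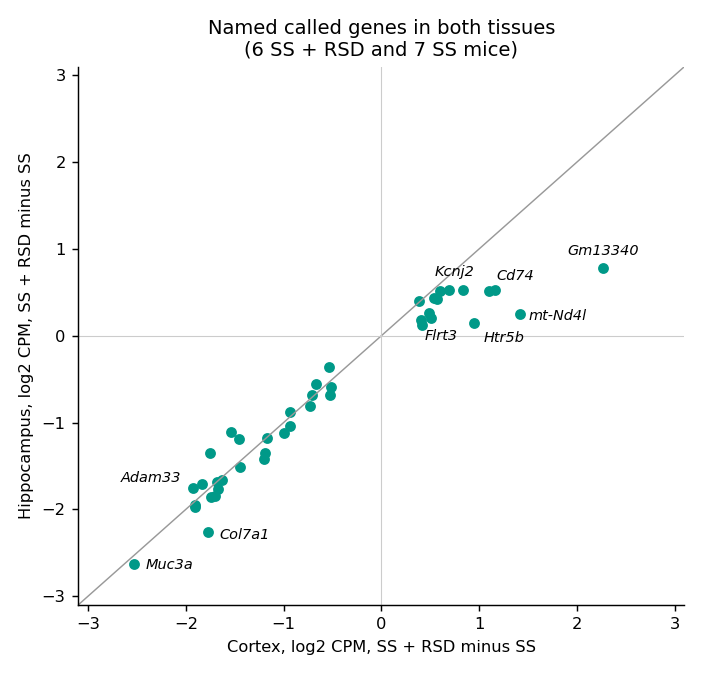
Difference in mean log2 CPM between SS + RSD (n = 6) and SS mice (n = 7) in cortex (x axis) and hippocampus (y axis) for the named genes that were called in cortex, 1 point per gene, with the line of equal differences in grey. Lower genes such as Muc3a, at -2.63 in hippocampus, lie near the line, and mt-Nd4l and Htr5b, at 0.25 and 0.14 in hippocampus, lie below it.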

How the data were processed

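RNA of cortex was extracted per mouse. The authors enriched polyadenylated RNA, built directional libraries, sequenced single reads, aligned them to GRCm39 with STAR and deposited whole-number counts per GENCODE gene, without normalization. The annotation release and the strand setting of the counting are not given in the sources used here. Gene types, positions and overlaps come from the GENCODE annotation of GRCm39 in hand. The 4 summary lines of the count table, which include reads that did not map or fell outside genes, stayed out of library sizes and tests, and 3 columns were left unused because their names match no library of known group.

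Tests on the deposited counts used edgeR 4.0.16 under R 4.3.3 (filterByExpr by group with a minimum count of 10 and a minimum total of 15, TMM scaling, glmQLFit and glmQLFTest) in 1 model of the 4 SS cortex groups (32 libraries), as the study's methods describe. A minocycline-treated SS library with counts identical to those of an AA library was left out. A gene is called when its p, adjusted by Benjamini-Hochberg over all genes tested, is under 0.05; the SE is the log2 fold change divided by the square root of F. The 18 values per library were compared by exact two-sided permutation over 3003 splits, and tissues with limma 3.58.1 on log2 CPM with a prior count of 2. DESeq2 1.42.0 served as an alternative, and the models without mice 5391 and 9621 or without processed pseudogenes were added after seeing the data. Replicates are separate mice, and their number sets the precision.

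The named genes were up to 10 higher and 10 lower called protein-coding genes of largest change that had a mean log2 CPM of 1 or more and kept their direction without mouse 9621, up to 5 called long noncoding RNAs, genes named by the study, and from the 32 lists up to 4 called members or 2 of smallest p. All other genes given with values were chosen after their values were seen. The comparison, the lists and the rule were chosen with earlier results of these data known. The scripts were tested on simulated counts with known changes.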

Additional observations from a re-analysis of the deposited data

Results flagged for a closer look

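In 30 of 242 groups of values looked at (12.4%), 1 mouse lay far from the rest of its group relative to the group's range, by Dixon's criterion. By chance the criterion flags about 1 in 20 independent groups. The groups here share mice and genes and include genes chosen after their values were seen, so the 12.4% cannot be compared with that rate. The cause was not tested.

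Mouse 9621, the SS + RSD mouse with the large striatal sum of 3594 CPM, accounted for most of them. It stood apart in striatal genes, with 520.5 CPM of Penk and 475 CPM of Gng7, in genes of the thalamus and hypothalamus, with 1.70 CPM of Nkx2-1, 0.599 CPM of Gbx2 and a list sum of 35.99 CPM, and in Nxph4 (5.59 CPM), Calb2 (81.0 CPM) and Grm3 (84.4 CPM). It also had the highest Ctnnb1 (658 CPM), Vcam1 (39.2 CPM), Epb42 (2.995 CPM), Flrt3 (38.98 CPM) and summed blood-derived myeloid genes (75.6 CPM), and the lowest Sirt2 (123 CPM), Sirt6 (11.5 CPM) and Sirt7 (20.9 CPM).

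SS + RSD mouse 9615 stood apart in the MHC class II genes Cd74 (61.3 CPM), H2-Eb1 (25.5 CPM), H2-Aa (34.03 CPM) and H2-Ab1 (19.55 CPM). Tmem255b was high in mouse 9616 (5.13 CPM) and Col5a1 in mouse 5400 (27.5 CPM). Among SS mice, mouse 9903 had 1083 CPM of Ttr, 8.745 CPM of Tmem72 and a choroid plexus sum of 1169 CPM, together with 18.7 CPM of Tnfrsf25. Grin2d was low in mouse 5353 (11.2 CPM), Jchain was high in mouse 9848 (2.39 CPM), and summed blood-derived myeloid genes were high in mouse 5349 (54.8 CPM).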

How the results depend on the processing

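The number of called genes changed with the model. Against 511 genes and 18 entries of the gene lists, 5508 genes had an unadjusted p under 0.05, RLE size factors gave 862 genes (75 higher and 787 lower) and 31 list entries, DESeq2 gave 2097 and 56, no filter on low counts gave 2 and 0, and the SS and SS + RSD libraries alone gave 3348 and 132. The number series as a term gave 0 and 0, in the 14 libraries alone also 0 and 0, and series A only gave 1 and 0. The share of reads outside genes as a term gave 0 and 0. Without mouse 9621 there were 0 and 0, or 3841 and 174 in the 14 libraries alone, and without mice 5391 and 9621, chosen after seeing the data, 0 and 0, or 4217 and 194. Leaving out 1 mouse at a time gave 0 to 1994 genes and 0 to 61 list entries, or 2012 to 5591 genes and 66 to 234 list entries in the 14 libraries alone. In all these one-mouse settings the called genes that could be tested kept their direction. The settings share all other SS and SS + RSD mice with the main model, so this is no separate result.

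With a term for the number series the log2 fold changes of Muc3a, Col7a1, Col24a1, Pde4c, Sirt1 and Malat1 turned to 0.62, 0.13, 0.083, 0.28, 0.19 and 0.14, and those of Sirt2 and Sirt3 to -0.027 and -0.056. In the 14 libraries alone with that term they were 0.64, 0.13, 0.083, 0.29, 0.19, 0.14, -0.023 and -0.051, and in series A only 0.57, 0.12, 0.067, 0.28, 0.17, 0.13, -0.034 and -0.060. With the share of reads outside genes as a term Sirt1 and Malat1 were at 0.14 and 0.29. Without mice 5391 and 9621 mt-Nd4l was at -0.19 in both models.

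Of the values per library, 0 passed without mouse 9621 and 0 in series A only. The smallest exact permutation p that 6 against 2 mice can give, 0.0357, became 0.643 after adjustment in series A, so a value could hardly pass there. Without mouse 9621 the share of reads outside genes differed by -3.45 percentage points, and the interneuron, microglial, astrocyte and cortical layer sums by 361, 205, 1181 and 29.3 CPM. In series A only these were 0.0737 percentage points and 104, 63.1 and 552 CPM for the first 3 sums, and oligodendrocyte genes differed by -109.2 CPM. The cause of these changes was not tested.

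No paired analysis was possible because the SS + RSD and SS mice are different animals and their replicate numbers are only names. With 2 SS mice in series A, comparisons within it have little precision.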
